A study of Mus musculus with 10 samples.

Results

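Matrix metalloproteinases (MMPs) and their tissue inhibitors (TIMPs) were examined in macrophages sorted from the lamina propria of the mouse small intestine. The genes were chosen by name, as 9 members of both families (Mmp2, Mmp9, Mmp12, Mmp13, Mmp14, Mmp19, Timp1, Timp2 and Timp3). A count was used here for 8 of these 9 genes, out of 17279 genes in the table, and all 8 passed the filter on low counts. Timp1 was not analysed here.

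Libraries came from C57BL6/J mice 24 h after sham surgery (5 libraries) or permanent middle cerebral artery occlusion (pMCAO, a model of stroke without reperfusion, 5 libraries). Cells of the whole small intestine were isolated by fluorescence-activated sorting. The sex and age of the mice and the markers used for sorting are not given in the labels. Replicate 1 of each group carries a name that marks it as a pool, and the animals behind each library are not given in the labels. Total counts ranged from 18894151 to 60665972 in sham libraries and from 6430643 to 28672285 in pMCAO libraries, so low counts were less precise after pMCAO. Sham replicate 5 and pMCAO replicate 4 stood apart by Xist, the transcript of the inactive X chromosome, with 135733 and 54382 counts against at most 166 in any other library. For the 8 genes and for the medians of gene lists, values without these libraries and without the pools are given below where they turned a direction or moved by over 1.5 times. The 12 macrophage markers summed to between 8367 and 18367 CPM (counts scaled to a common library total) in sham libraries and between 9086 and 17576 in pMCAO libraries, and none of them was at 0 in any library. RNA of other cells was also measured: Mcpt1, a protease of mucosal mast cells, had a median of 2251 CPM and Jchain, the joining chain made by plasma cells, a median of 5994 CPM.

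MMPs are zinc-dependent endopeptidases that are made as inactive proenzymes and cleave collagens, gelatins, elastin and many other extracellular proteins. Most are secreted, whereas Mmp14 (MT1-MMP) sits in the plasma membrane, where it activates pro-Mmp2 in a complex that contains Timp2. TIMPs bind the active site of MMPs and block it. In the intestinal wall, macrophages and mesenchymal cells are known sources of these enzymes, and Mmp9 is also stored in the granules of neutrophils.

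Mmp13 (collagenase-3) and Mmp12 (macrophage elastase) are neighbours on the plus strand of chromosome 9. In GRCm38 (GENCODE M21), Mmp13 (ENSMUSG00000050578) lies at chr9:7272514-7283331 and Mmp12 (ENSMUSG00000049723) at chr9:7344381-7369499, with 61049 bases between them. They are the first genes of a run of 9 MMP genes that ends with Mmp7 at position 7699585, and 4 of these 9 (Mmp13, Mmp12, Mmp8 and Mmp7) were counted here. The 250 bases before each annotated start of this pair, from RefSeq on GRCm38.p6, are shown because these neighbours differed widely in level. Capitals mark matches to TGANTCA, the sequence bound by AP-1 (Fos and Jun dimers), which was searched on both strands. RefSeq windows were found for 6 of the 9 genes, without Mmp2, Mmp9 and Mmp19.
Mmp13, chr9:7272264-7272513, plus strand: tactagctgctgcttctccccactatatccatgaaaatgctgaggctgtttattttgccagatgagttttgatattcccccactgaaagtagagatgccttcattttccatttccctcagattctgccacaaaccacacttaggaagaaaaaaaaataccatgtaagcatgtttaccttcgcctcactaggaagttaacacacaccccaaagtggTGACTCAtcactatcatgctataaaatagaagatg
Mmp12 first start, chr9:7344147-7344396, plus strand: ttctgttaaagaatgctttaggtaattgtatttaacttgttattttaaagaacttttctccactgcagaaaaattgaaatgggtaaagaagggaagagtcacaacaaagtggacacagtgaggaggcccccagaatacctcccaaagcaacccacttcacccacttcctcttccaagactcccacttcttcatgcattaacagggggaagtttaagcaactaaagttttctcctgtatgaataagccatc
Mmp12 second start, chr9:7347124-7347373, plus strand: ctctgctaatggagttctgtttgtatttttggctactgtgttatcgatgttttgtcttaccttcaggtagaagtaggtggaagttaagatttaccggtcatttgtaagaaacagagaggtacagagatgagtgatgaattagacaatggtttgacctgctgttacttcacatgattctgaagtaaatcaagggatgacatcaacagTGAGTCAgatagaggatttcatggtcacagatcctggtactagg
The Mmp13 window held TGACTCA from 35 to 29 bases before the start and TATAAA from 16 to 11 bases before it. The window of the second Mmp12 start, which lies inside the gene, held TGAGTCA from 44 to 38 bases before the start, and the window of the first start held no match. TGANTCA was present in 6.75% of the 32851 RefSeq promoter windows of this length, and TATAAA in 12.4%. The windows of Mmp14, Timp2 and Timp3 held neither motif but did hold GGGCGG (the GC box), as did 32.7% of all windows. These matches describe the sequence only.

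Levels of the 8 genes were first compared per length, as RPKM, the TMM-scaled CPM divided by the exon union in kilobases. Mmp13 and Mmp9 (gelatinase B) had medians far above the others, at 106 and 66.2 RPKM over the 10 libraries. Between libraries Mmp9 ranged from 21.2 to 138 RPKM, which overlapped the ranges of Timp2 (7.79 to 28.4 RPKM) and Mmp2 (4.13 to 24.9 RPKM). Ranked among 16864 genes with a length, Mmp13 was number 405 and Mmp9 number 629. Together they made up between 69.9% and 91.2% of the summed RPKM of the 8 genes in every library. The inhibitor Timp2 (12.5 RPKM), the membrane enzyme Mmp14 (10.5 RPKM) and Mmp2, gelatinase A (10.2 RPKM), formed an intermediate group. Mmp12 (1.11 RPKM) and Mmp19, a secreted enzyme of basement membranes (1.08 RPKM), were low, at ranks 12711 and 12809. Timp3, the inhibitor that is bound to the extracellular matrix, was close to absent at 0.061 RPKM, rank 16758.

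The order of neighbours in level was compared within libraries by a two-sided exact sign-flip test of the log2 RPKM ratio (n = 10, smallest possible p = 0.00195), adjusted over 7 neighbouring pairs. The pairs and their order were taken from the medians of these same 10 libraries, so the test is not independent of that order. Mmp13 was above Mmp9 in 10 of 10 libraries, with a mean log2 ratio of 0.77 ± 0.45 (SD, exact adjusted p = 0.0034). Mmp9 was above Timp2 by 2.08 ± 0.73, Mmp2 above Mmp12 by 2.97 ± 0.88 and Mmp19 above Timp3 by 4.15 ± 1.29 (log2 ratio, SD), each in 10 of 10 libraries with the same exact adjusted p of 0.0034. Within the intermediate group, Timp2 and Mmp14 did not differ beyond the spread between libraries (exact adjusted p = 0.331), nor did Mmp14 and Mmp2 (exact adjusted p = 0.433). Mmp12 and Mmp19 did not differ either (exact adjusted p = 0.873). With the longest transcript as length, Mmp14 moved to 19.3 RPKM, above Timp2 at 13.1, and Mmp12 to 1.80 RPKM, while Mmp13 was above Mmp9 in 9 of 10 libraries.

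**Figure D1:**
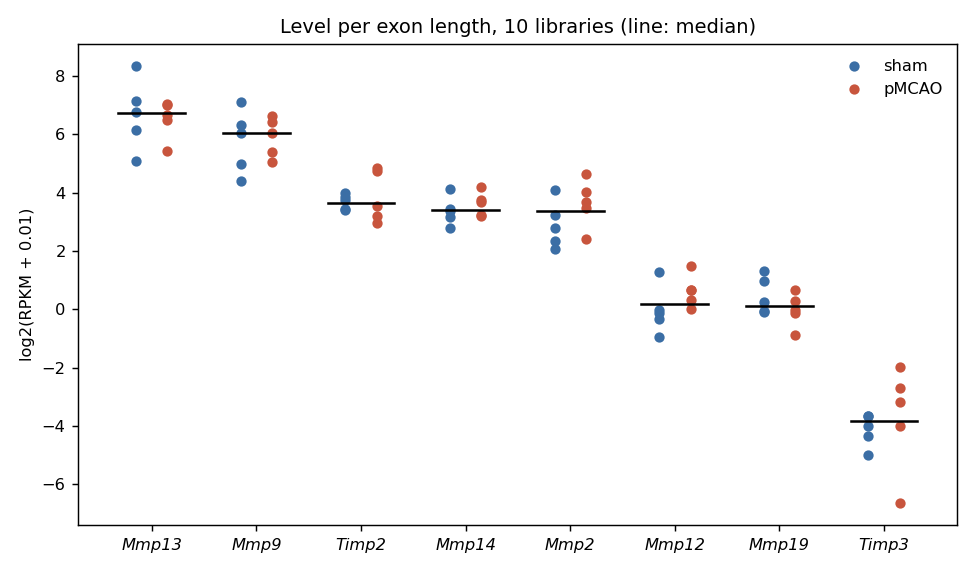
Level of each gene per exon length, as log2(RPKM + 0.01), in the 5 sham (blue) and 5 pMCAO (red) libraries, with the median of all 10 as a line. Mmp13 and Mmp9 are at the top with medians of 106 and 66.2 RPKM, Timp2, Mmp14 and Mmp2 are near 10.2 to 12.5 RPKM, and Timp3 is at the bottom with 1 pMCAO library at 0.

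The question of the design is whether stroke changed the RNA of these macrophages after 24 h. None of the 8 genes was called by edgeR's quasi-likelihood test at an FDR of 0.05. Over all genes 0 of 16949 were called (0.0%), 799 (4.71%) had an unadjusted p under 0.05, and DESeq2 called 3. In simulated counts edgeR recovered 10% of genes changed by 1 on the log2 scale, so changes of that size can be missed. None of the 8 had an unadjusted p under 0.05. None had groups that did not overlap, where 0.985% of all genes did. On the log2 scale 5 of the 8 were higher after pMCAO and 3 lower, with a median difference of 0.29 against -0.0059 over all genes. Without both libraries with Xist counts the median was 0.099, and without both pools it was 0.14 with 6 higher and 2 lower. In bulk RNA of sorted cells, a lower share of a cell type and less RNA per cell cannot be told apart.

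The collagenase Mmp13 had TMM-scaled CPM of 293, 188, 381, 870 and 90.9 in sham replicates 1 to 5 and of 341, 272, 353, 240 and 115 in pMCAO replicates 1 to 5. All 5 pMCAO libraries lay inside the sham range, which sham replicate 4 stretched upwards and sham replicate 5 downwards. The mean was 365 ± 303 CPM in sham and 264 ± 95.8 CPM in pMCAO libraries (SD, n = 5 each), a log2 fold change of -0.47 (SE 0.50, 95% confidence interval -1.55 to 0.61, FDR = 0.932 by edgeR). Without sham replicate 4 the log2 fold change was 0.14, without sham replicate 5 it was -0.72 and without pMCAO replicate 5 it was -0.28.

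The gelatinase Mmp9 (chr2:164940780-164955850) had 234, 113, 285, 488 and 74.9 CPM in the sham replicates and 150, 234, 350, 302 and 117 CPM in the pMCAO replicates. Again every pMCAO library was inside the sham range, and the same sham libraries held its ends. The group means were nearly equal, at 239 ± 163 and 231 ± 98.4 CPM (SD, n = 5 each), with a log2 fold change of -0.051 (SE 0.46, interval -1.05 to 0.95, FDR = 0.996 by edgeR). Its sign turned with the choice of libraries: it was 0.37 without sham replicate 4, 0.021 without sham replicate 3, 0.069 without pMCAO replicate 1, 0.12 without pMCAO replicate 5 and 0.064 without both pools. Without both libraries with Xist counts it was -0.40.

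The gelatinase Mmp2 (chr8:92827291-92853420), which is widely expressed by mesenchymal cells, had 31.8, 16.8, 23.3, 57.8 and 13.9 CPM in the sham replicates and 55.1, 37.2, 84.0, 43.0 and 17.7 CPM in the pMCAO replicates. It was higher in 4 of 5 pMCAO libraries than the sham median, but sham replicate 4 exceeded all except pMCAO replicate 3. Its log2 fold change was 0.72 (SE 0.44, interval -0.23 to 1.67), which had the smallest p of the 8 genes and did not pass (FDR = 0.922 by edgeR). Leaving out single libraries gave values between 0.41 and 1.13, the lowest without pMCAO replicate 3 and the highest without sham replicate 4. The summed level of 10 fibroblast markers was 24.98 to 49.4 CPM in sham and 15.9 to 40.8 CPM in pMCAO libraries, a log2 difference of -0.43 (exact permutation adjusted p = 0.873). Dcn and Col3a1 were the highest of these markers, with medians of 10.2 and 7.12 CPM, and Lum and Fbln1 were at 0 in a pMCAO library each. The markers differed in both directions, with log2 fold changes from -1.63 for Fbln1 to 1.59 for Pdgfra, and 0.37 for Dcn. The smooth muscle and pericyte markers differed by 0.48 on the log2 scale (exact permutation adjusted p = 0.968), and across the 10 libraries their sum had an r of 0.731 with Mmp2 (permutation p = 0.0153, adjusted p = 0.183, rho = 0.83 with permutation p = 0.00451 and adjusted p = 0.132, 0.627 without the 2 farthest libraries), against 0.226 for the fibroblast sum (permutation p = 0.536, adjusted p = 0.755, rho = 0.127 with adjusted p = 0.846, 0.408 without the 2 farthest libraries). After each group was centred on its mean, these r values were closer, at 0.711 for the smooth muscle and pericyte sum and 0.563 for the fibroblast sum. The part of mesenchymal cells in the level of Mmp2 was not tested.

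Mmp12, the elastase named for macrophages, had 3.63, 5.72, 7.11, 17.6 and 6.60 CPM in the sham replicates and 20.2, 11.5, 7.17, 8.94 and 11.3 CPM in the pMCAO replicates. All 5 pMCAO libraries were above the sham median of 6.60 CPM, and only sham replicate 4 made the groups overlap. The log2 fold change was 0.54 (SE 0.43, interval -0.39 to 1.47, FDR = 0.922 by edgeR). Without sham replicate 4 the log2 fold change was 1.02 (FDR = 0.708 by edgeR), and the groups did not overlap by a narrow margin, 7.26 CPM for the highest sham and 7.29 CPM for the lowest pMCAO library after rescaling. Over all genes 2.74% did not overlap without that library. Without both pools, which were the lowest sham and the highest pMCAO library, the log2 fold change of Mmp12 was 0.078. It was 0.26 without pMCAO replicate 1 and 0.35 without sham replicate 1. The end of Mmp12 overlaps Mmp1b on the opposite strand, and whether counting used strand is not given in the sources used here.

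**Figure D2:**
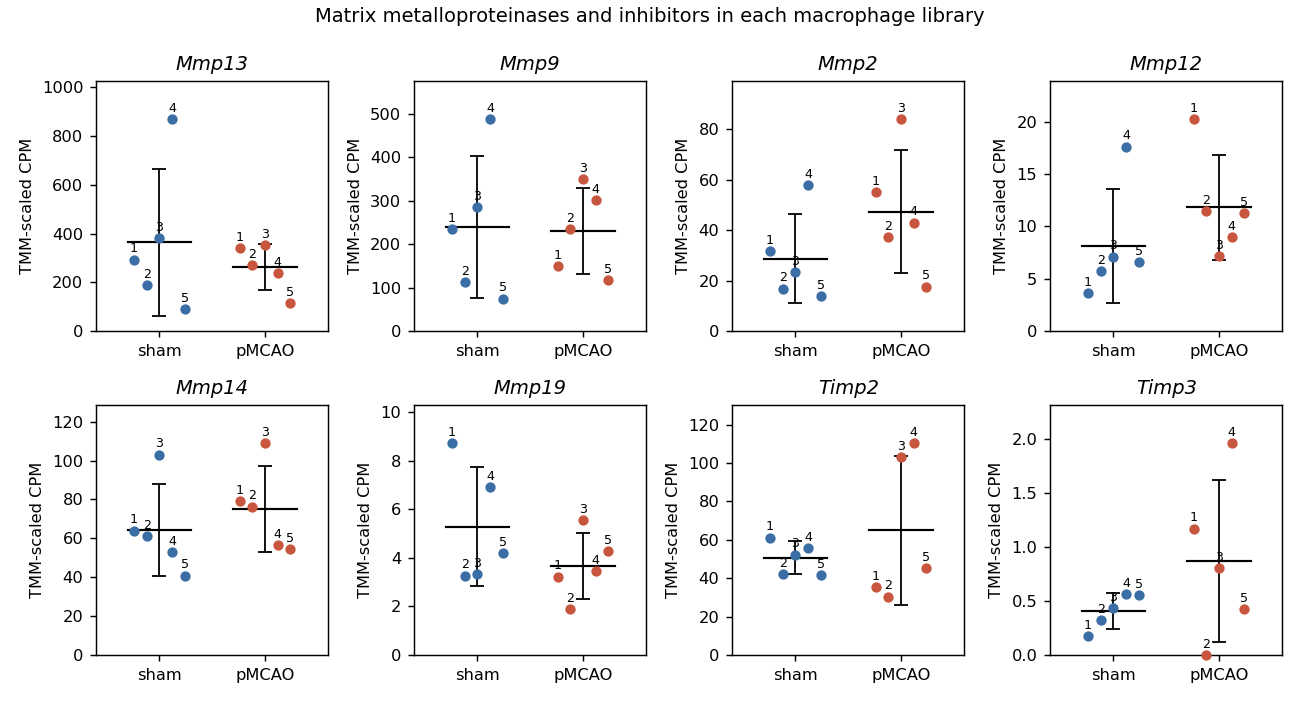
TMM-scaled CPM of each gene in the 5 sham (blue) and 5 pMCAO (red) libraries, numbered by replicate, with the mean (line) and SD (bars) of each group. The groups overlap for all 8 genes, and sham replicate 4 is the highest sham library for Mmp13, Mmp9, Mmp2 and Mmp12.

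The membrane enzyme Mmp14 (chr14:54431612-54445364) varied least among the MMPs, with 64.0, 61.0, 103, 52.8 and 40.8 CPM in the sham replicates and 79.1, 76.3, 109, 56.4 and 54.6 CPM in the pMCAO replicates. The highest library was 2.53 times the lowest in sham and 2.00 times in pMCAO. The log2 fold change was 0.22 (SE 0.26, interval -0.35 to 0.79, FDR = 0.943 by edgeR), the narrowest interval of the 8 genes. Without sham replicate 3 it was 0.46, and without sham replicate 5 it was 0.093. Without pMCAO replicate 3 it was lowest, at 0.042.

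Mmp19 (chr10:128790910-128800824) was low throughout, with 8.73, 3.26, 3.34, 6.92 and 4.18 CPM in the sham replicates and 3.22, 1.88, 5.56, 3.44 and 4.28 CPM in the pMCAO replicates. The highest libraries were sham replicates 1 and 4, and the others spread over both groups. The log2 fold change was -0.52 (SE 0.43, interval -1.46 to 0.41, FDR = 0.922 by edgeR), and it was -0.27 without sham replicate 1 and -0.22 without both pools. Mmp19 overlaps Tmem198b on the opposite strand, so its reads are uncertain in the same way as those of Mmp12.

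Among the inhibitors, Timp2 (chr11:118301069-118355740, minus strand) was even in sham libraries, with 61.1, 42.2, 52.3, 55.8 and 41.5 CPM, and uneven after pMCAO, with 35.5, 30.3, 103, 111 and 45.1 CPM. pMCAO replicates 3 and 4 were above every sham library and pMCAO replicates 1 and 2 below every one. The log2 fold change was 0.36 (SE 0.35, interval -0.40 to 1.12, FDR = 0.925 by edgeR). It was 0.017 without both libraries with Xist counts, 0.59 without both pools, and -0.063 in limma with sample quality weights. Without pMCAO replicate 4 alone it was 0.073, and without pMCAO replicate 3 alone 0.13. Cep295nl lies within the Timp2 locus on the same strand, and the split of reads between them is uncertain.

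Timp3 (chr10:86300372-86349506) had 135 counts over the 10 libraries, from 0 to 43 in a library. Its level was 0.175, 0.323, 0.432, 0.566 and 0.556 CPM in the sham replicates and 1.17, 0, 0.808, 1.97 and 0.425 CPM in the pMCAO replicates. A count of 0 in pMCAO replicate 2 allows up to 0.105 CPM before TMM scaling. The 3 highest libraries and the lowest were all pMCAO. The log2 fold change of 1.06 (SE 0.96, interval -1.03 to 3.14, FDR = 0.925 by edgeR) was the least precise of the 8 genes and was -0.44 in limma-voom. It was 0.62 without both libraries with Xist counts and 0.48 without pMCAO replicate 4 alone. Timp3 lies within Syn3, which is on the opposite strand.

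Sham replicate 5 and pMCAO replicate 5 had the lowest macrophage marker sums of their groups (8367 and 9086 CPM). Over the groups the mean log2 of that sum differed by -0.12. Setting the 8 genes against it moves all of them by the same small amount. Lyz2 was the highest of the 12 markers, with a median of 6897 CPM and a log2 fold change of -0.32. C1qb was next, at 2075 CPM and -0.012. The markers differed in both directions, from -0.49 for Cd14 to 0.54 for Mertk, so this shift depends on the markers chosen. As a difference in mean log2 CPM, Mmp2 was at 0.74 before and 0.85 after division by the sum, Mmp13 at -0.18 and -0.062, and Mmp9 at 0.13 and 0.25 (no test).

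**Figure D3:**
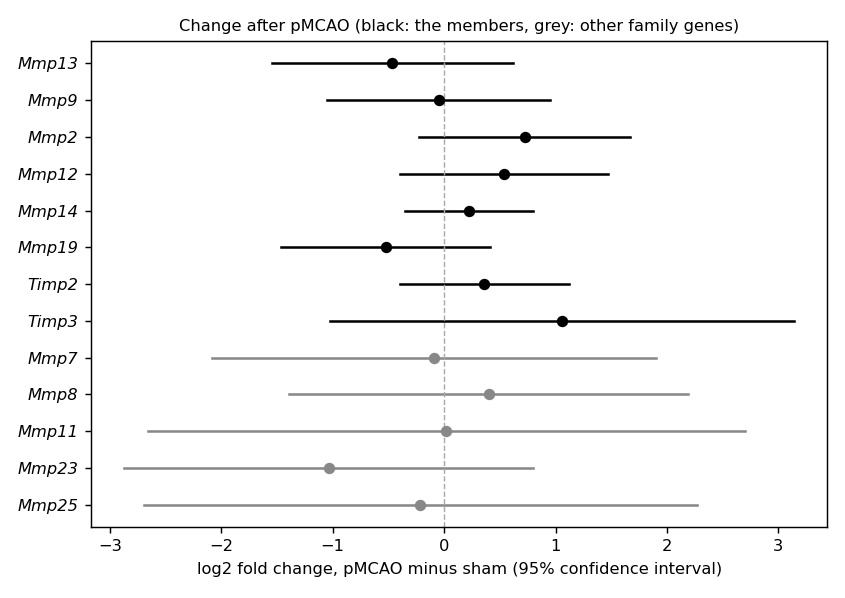
Log2 fold change of pMCAO against sham with its 95% confidence interval for the 8 genes (black) and for 5 other MMP genes that were tested (grey). Every interval includes 0, from the narrowest for Mmp14 (-0.35 to 0.79) to wide intervals such as that of Timp3 (-1.03 to 3.14).

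Of 18 other MMP and TIMP genes, 6 were counted. Mmp7 (matrilysin, made by Paneth cells) ranged from 0.492 to 20.9 CPM over the 10 libraries and Mmp8 (neutrophil collagenase) from 0.377 to 7.78 CPM. Mmp11 (stromelysin-3), the membrane enzymes Mmp15 and Mmp25, and Mmp23 reached at most 2.69, 1.03, 3.96 and 2.83 CPM. None of the 5 tested was called, with log2 fold changes from -1.04 for Mmp23 to 0.40 for Mmp8 and a median of -0.092. Without both pools 3 of the 5 were higher and the median was 0.24. Mmp11 overlaps Chchd10 on the opposite strand. Mmp7 and Mmp8 belong to the same chromosomal run as Mmp13, and per length their medians were 4.71 and 1.17 RPKM against 106 RPKM for Mmp13.

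Neutrophil markers were set beside Mmp9. Of 9 neutrophil markers 4 were counted, and their sum ranged from 59.7 to 116 CPM in sham and from 66.6 to 153 CPM in pMCAO libraries (log2 difference -0.018, exact permutation adjusted p = 0.968). Most of the sum was Csf3r, the receptor of granulocyte colony-stimulating factor, with a median of 87.9 CPM. The next, Mmp8, had a median of 2.84 CPM, so the sum and its relation to Mmp9 mostly follow Csf3r. The calprotectin subunit S100a8 was at 0 in 4 of 5 pMCAO libraries and highest, at 6.23 CPM, in sham replicate 4, which also had the most Mmp9. The neutrophil cytokine Retnlg was at 0 in sham replicate 4 and highest, at 12.2 CPM, in pMCAO replicate 1. Across the 10 libraries the neutrophil sum had an r of 0.536 with Mmp9 (permutation p = 0.111, adjusted p = 0.359, rho = 0.418 with permutation p = 0.232 and adjusted p = 0.571, 0.383 without the 2 farthest libraries). The part of neutrophils in the level of Mmp9 was not tested.

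Genes of the related ADAM and ADAMTS families were all higher after pMCAO on the log2 scale (11 of 11 tested), but none was called. Over all genes 8367 of 16949 were higher, and Adamts10 was the only ADAMTS gene tested. Without both libraries with Xist counts 8 of 11 were higher. The median log2 fold change was 0.29 against -0.0059 over all genes. The sheddase Adam10 was at 95.1 ± 8.83 CPM in sham and 115 ± 11.1 CPM in pMCAO libraries (SD, n = 5 each), a log2 fold change of 0.27 (SE 0.13), and Adam17, which releases TNF, was at 128 ± 25.1 and 160 ± 17.5 CPM, a log2 fold change of 0.32 (SE 0.16). Both had an FDR of 0.922 by edgeR.

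Activators of MMPs and the plasminogen system gave 4 higher and 6 lower genes of 10 tested, none called (median log2 fold change -0.16, and -0.062 without both libraries with Xist counts or -0.089 without both pools). The mast cell chymase Mcpt4 was at 44.1 ± 28.5 CPM in sham and 12.02 ± 9.89 CPM in pMCAO libraries (SD, n = 5 each), with a log2 fold change of -1.86 (SE 0.59, FDR = 0.922 by edgeR). The sum of the eosinophil and mast cell markers differed in the same direction. Of these 6 markers 5 were counted, with Mcpt1 and Cpa3 the highest and Prg2 at 0 in a sham library. The sums were 1184 to 10730 CPM in sham and 281 to 3627 CPM in pMCAO libraries, a log2 difference of -1.91 (exact permutation p = 0.0476, adjusted p = 0.524). Mcpt1, with a median of 2251 CPM, made up most of the sum. The log2 fold change was -1.86 for Mcpt1, -1.17 for Cpa3 and -0.72 for Kit. It was -0.13 for the eosinophil marker Siglecf and 0.42 for Prg2. The part of mast cell RNA in the Mcpt4 difference was not tested. The plasmin inhibitor Serpine2 had a log2 fold change of 2.33 (SE 1.19, FDR = 0.922 by edgeR) at no more than 2.53 CPM.

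Of 14 other inhibitors, binding partners and clearance receptors, 6 were higher and 8 lower, with no call (median -0.13). The integrin subunit Itgav was at 190 ± 45.5 CPM in sham and 287 ± 65.0 CPM in pMCAO libraries, a log2 fold change of 0.59 (SE 0.21), and Lrp1, the endocytic receptor that clears MMPs and TIMPs, at 155 ± 33.8 and 212 ± 50.3 CPM, a log2 fold change of 0.45 (SE 0.21; SD, n = 5 each, FDR = 0.922 by edgeR for both). Among 13 matrix substrates 9 were higher and 4 lower, with no call (median 0.37). Without both libraries with Xist counts 5 of 12 were higher and 7 lower, with a median of -0.098. The collagen-binding protein Sparc had a log2 fold change of -1.46 (SE 0.76) and the matrix glycoprotein Tnc one of 1.39 (SE 0.90), both at an FDR of 0.922 by edgeR and below 10 CPM.

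Levels of the 8 genes were then compared across libraries. Of 84 relations (28 between pairs of the genes and 56 with the summed markers of 7 cell types, log2 CPM, n = 10) none passed after adjustment. The closest was between Mmp9 and Mmp13 (Pearson r = 0.873, permutation p = 0.00073, adjusted p = 0.0613, Spearman rho = 0.794, permutation p = 0.00927, adjusted p = 0.156). It was 0.797 without the 2 libraries farthest from the median of Mmp9, and 0.889 after each group was centred on its mean (adjusted permutation p = 0.0227). Without both libraries with Xist counts r was 0.864. For Mmp2 and Mmp13 r was 0.748 (permutation p = 0.0108, adjusted p = 0.175, rho = 0.733 with permutation p = 0.0203 and adjusted p = 0.247, 0.717 without the 2 farthest libraries) and 0.894 after centring (adjusted permutation p = 0.0227). For Mmp2 and Mmp9 r was 0.769 (permutation p = 0.0111, adjusted p = 0.175, rho = 0.83 with permutation p = 0.0047 and adjusted p = 0.132). It was 0.637 without the 2 farthest libraries and 0.823 after centring (adjusted permutation p = 0.0751). Centred values were permuted across both groups, so the p-values after centring can be too small. For the chromosomal neighbours Mmp12 and Mmp13 r was 0.355 (permutation p = 0.316, adjusted p = 0.67, rho = 0.321 with permutation p = 0.367 and adjusted p = 0.661, -0.194 without the 2 farthest libraries).

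The macrophage marker sum had an r of 0.787 with Mmp9 (adjusted permutation p = 0.175, rho = 0.709, adjusted p = 0.285, 0.784 without the 2 farthest libraries). With Mmp13 its r was 0.71 (adjusted permutation p = 0.221, rho = 0.685, adjusted p = 0.285, 0.689 without the 2 farthest libraries). Neither relation passed, and without both libraries with Xist counts r was 0.651 for Mmp9 and 0.61 for Mmp13. The smooth muscle and pericyte sum, 8.22 to 47.8 CPM in sham and 12.8 to 102 CPM in pMCAO libraries, had an r of 0.818 with Mmp9 (adjusted permutation p = 0.151, rho = 0.867, adjusted p = 0.132, 0.7 without the 2 farthest libraries). With the classical monocyte sum r was negative, at -0.683 for Mmp19 (adjusted permutation p = 0.232, rho = -0.794, adjusted p = 0.156). For Mmp9 it was -0.583 (adjusted permutation p = 0.311, rho = -0.576, adjusted p = 0.355), and -0.839 without both libraries with Xist counts. The part of these cell types in the covariation of the enzymes was not tested.

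**Figure D4:**
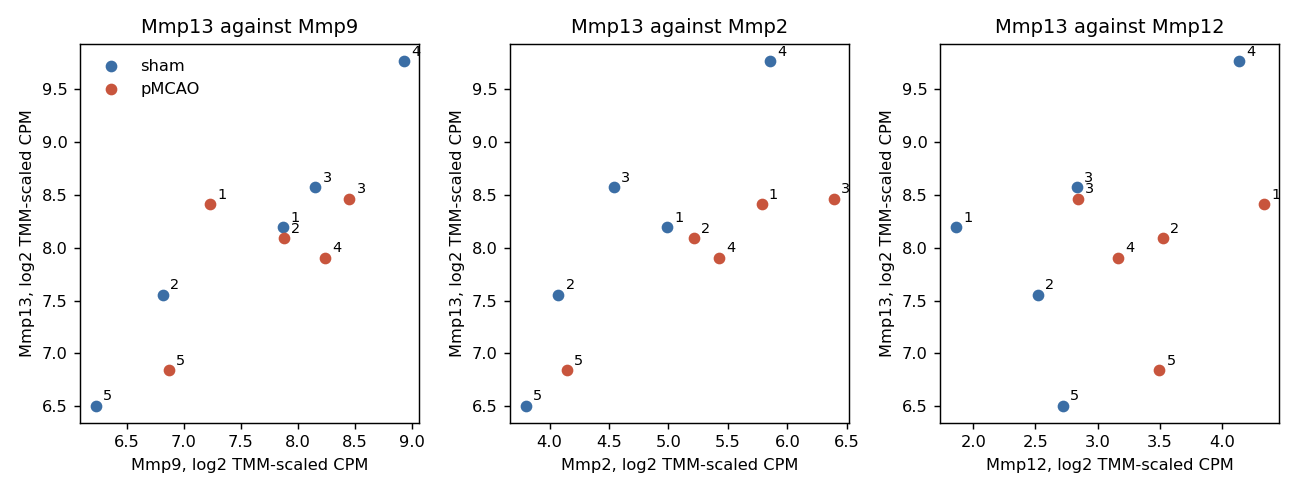
Log2 TMM-scaled CPM of Mmp13 against Mmp9, Mmp2 and Mmp12 in 5 sham (blue) and 5 pMCAO (red) libraries, numbered by replicate. Replicate 5 of both groups is lowest and sham replicate 4 highest for Mmp13, and the points lie closest to a line for Mmp9 (r = 0.873).

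Across the same 10 libraries, the genes whose log2 CPM was most like each of the 8, among all genes tested, were Fpr2 and Hjurp for Mmp2 (r = 0.956 and 0.947), Hrh1 and Clec4n for Mmp9 (0.955 and 0.951), Rims3 and Cby1 for Mmp12 (0.943 and 0.899) and Gm12115 and Pkp4 for Mmp13 (0.973 and 0.96). For the other four genes these were Ppt1 and Fblim1 for Mmp14 (0.939 and 0.919), Cog8 and Sars2 for Mmp19 (0.928 and 0.917), Rev1 and Peg10 for Timp2 (0.939 and 0.909) and Gm17219 and Gm37124 for Timp3 (0.951 and 0.951). Each is the highest value in a search over all genes and is a description of these libraries.

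The sums of the other marker lists did not differ between groups after adjustment. The sums in sham and pMCAO libraries were 738 to 2354 and 781 to 1697 CPM for classical monocytes (Ccr2 and Plac8 highest), 68.0 to 134 and 77.0 to 298 CPM for endothelial cells (Pecam1 and Lyve1), and 429 to 914 and 116 to 1139 CPM for epithelial cells (Muc2 and Fabp2). For dendritic cells (Itgae and Flt3) they were 88.0 to 428 and 95.8 to 337 CPM, for T cells (Trbc2 and Trac) 29.6 to 318 and 28.2 to 187 CPM, and for B and plasma cells (Jchain and Mzb1) 763 to 24630 and 1073 to 27172 CPM. The exact permutation adjusted p was 0.968 for each of these lists. A sum mostly follows its highest genes. In the monocyte list, log2 fold changes ran from -1.08 for Plac8 to 1.28 for F13a1, with Ccr2 at 0.14.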

How the data were processed

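RNA of 10 libraries (2.0 ng of total RNA each, ribosomal RNA removed, paired reads of 100 bases) was measured. Per the file headers, the authors deposited raw counts (whole numbers) for each gene, together with CPM that sum to the same total in every library. Per the labels, STAR, featureCounts, limma and GRCm38 (mm10) were used, and versions and strand setting are not given in the sources used here. The authors' deposited log2 fold changes, mean log2 expression, p-values and FDR were not used. Each listed gene had at least 10 counts in at least 2 libraries.

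Deposited counts were filtered (filterByExpr), scaled by TMM and compared with edgeR 4.0.16 (quasi-likelihood test, R 4.3.3). Calls required an FDR (Benjamini-Hochberg over all genes tested) no higher than 0.05. SE was the log2 fold change divided by the root of F. RPKM used exon unions of GENCODE M21. Marker sums (log2, prior 2 CPM) and orders were compared with two-sided exact permutation tests. Correlations used 100000 permutations. Tests were tried on counts simulated with the means and spread of these libraries. There edgeR recovered 7 of 70 genes changed by 1 on the log2 scale and 34 of 68 changed by 2, with 1 false call. DESeq2 recovered 12 of 70 and 46 of 68, with 46 false calls. Alternatives were DESeq2 1.42.0, limma 3.58.1 (voom, with and without sample quality weights), other scalings and filters, the replicate block, and left-out libraries. Additions made after seeing the data were levels relative to the macrophage marker sum and the share of genes without overlap when sham replicate 4 was left out. The labels call replicates biological, and how animals map to them is not given.

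A cell type marker list of the design is not reported here, and adjusted p-values cover the lists that are. The members and lists were chosen with earlier results of these data known. Named genes are the members, family genes in the table, the 2 genes with the smallest unadjusted p of each list, the 2 highest markers or those at 0, and the 2 genes most like each member. Xist was named after its values were seen.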

Additional observations from a re-analysis of the deposited data

Results flagged for a closer look

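Of 50 groups of 5 libraries examined (genes and marker sums, log2 CPM), 2 held a library set apart from the others by more than Dixon's limit of 0.71, where 2.5 would be expected by chance at 1 in 20. Mmp15 was highest in pMCAO replicate 1, and its distance from the next library made up 0.738 of the group's range. The endothelial marker sum was highest in pMCAO replicate 4 (0.781 of the range), which is also a library with Xist counts. Lyve1 made up most of it there, at 246 CPM against a median of 26.1 CPM. Pecam1 was at 43.6 CPM, below its median of 50.4 CPM. Cdh5, Kdr and Egfl7 were above their medians but at no more than 3.12 CPM.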

How the results depend on the processing

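None of the 8 genes was called under any alternative, and 0 genes in all were called except by DESeq2, which called 3. The log2 fold change of Mmp9 was 0.14 in limma-voom, 0.13 with the replicate block, 0.064 without the pools, and from -0.28 to 0.37 when single libraries were left out. As a difference in mean log2 CPM it was 0.13, and 0.25 relative to the macrophage marker sum, which adds the same amount to every gene. That of Mmp13 ranged from -0.72 to 0.14 over left-out libraries. Timp2 was at -0.063 with sample quality weights and Timp3 at -0.44 in limma-voom. The count of members whose groups did not overlap ranged from 0 to 1 over left-out libraries (Mmp12 without sham replicate 4). With the replicate block 0 genes were called and 1303 had an unadjusted p under 0.05, against 799 without it. Same-numbered libraries had correlations of -0.0055 to 0.372, and not every library correlated best with its own number, so the numbers were not taken as pairs.

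Among marker sums (log2 difference), leaving out single libraries gave -0.21 to 0.093 for neutrophils, -0.81 to 0.45 for B and plasma cells, -0.13 to 0.30 for monocytes, -0.45 to 0.16 for dendritic cells, -0.078 to 0.41 for endothelial cells and -0.30 to 0.0086 for macrophages. Neutrophils were at 0.0053 with upper-quartile scaling and 0.0034 with DESeq2 size factors. Without the pools monocytes were at -0.00091. Without both libraries with Xist counts, smooth muscle was at -0.24, endothelial cells at -0.028, dendritic cells at 0.27 and B and plasma cells at 0.21. After centring each group, 2 relations passed, by permutation p-values that can be too small. Within sham or pMCAO libraries on their own 0 neighbouring pairs passed, where the smallest possible exact p over 5 libraries is 0.0625. Causes of these shifts were not tested. Among the 8 genes, Timp3 had the fewest counts.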
